A study of Mus musculus with 5 samples.

Results

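The choroid plexus genes described here are Ttr, Aqp1, Enpp2, Kcne2, Folr1, Kl, Clic6, Slc4a5 and Prlr, 9 of the 17739 genes in the deposited table. They were chosen by symbol as genes typical of the choroid plexus epithelium, and all 9 were in the table. Expression was measured by RNA sequencing in 5 tumours of 1 group. The mice were Math1-Cre;Gli2A animals, bred from Math1-Cre and R26;Gli2A parents and fed a doxycycline (DOX) diet from conception (embryonic day 0). The labels give GLI2, a transcription factor of the Sonic hedgehog pathway, as active in all 5. Math1-Cre is active in cerebellar granule neuron progenitors. Tumour cells were taken from the cerebella once medulloblastomas had developed, were dissociated with papain, and went straight to RNA isolation. The labels give neither age nor sex, and they do not say whether each tumour came from its own mouse, so the spread between samples may be partly technical. With 1 group, no comparison between conditions and no test between groups was possible, and every value below is a description of these 5 tumours, called tumours 5, 1, 8, 14 and 15 after their labels.

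The choroid plexus is a frond of epithelium over leaky capillaries that hangs in the brain's ventricles, with a plexus in the fourth ventricle next to the cerebellum. Its epithelial cells secrete cerebrospinal fluid by moving sodium, chloride, bicarbonate and water from blood to ventricle, and they release carrier proteins and take up vitamins and hormones. Ttr encodes transthyretin, the carrier of thyroid hormone and retinol-binding protein that the plexus makes in large amounts. Some of the other genes are also used elsewhere in the brain: Enpp2, for example, is also known from oligodendrocytes.

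The values are on a log2 scale, so a difference of 1 is a 2-fold difference. They are read as regularised-log values, in which differences at weakly expressed genes are pulled towards 0. Column medians lay between 8.51 and 8.58. The list of granule lineage and hedgehog pathway genes had medians between 12.67 and 13.07, with Zic1 the most abundant at 15.08 ± 0.05 (SD, n = 5). Its lowest and most variable gene was Atoh1, the Math1 gene of granule neuron progenitors, at 8.17 in tumour 5, against 8.00, 8.27, 9.18 and 9.49 in tumours 1, 8, 14 and 15, with a mean of 8.62 ± 0.67 close to the column medians. Tumour 5 stood apart from the other 4 for the genes described here, so the members' levels, ranges and order are also given without it.

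The members lie on 6 chromosomes, and the promoters of 5 of them were in the RefSeq promoter table (GRCm38.p6), as 8 windows. Kcne2 and Clic6 are near neighbours on chromosome 16, with 187.6 kb between them. The windows run from 250 bases before to 50 after a transcript start. They were searched on both strands for letters typical of sites for 3 families of factors known from choroid plexus or ciliated cells, chosen with the sequences in view. TAATCC, the core bound by OTX homeodomain factors, was in 0 of the 8 windows and in 7.1% of all 32851 windows. TGTTTA, a forkhead core, was in 2 of the 8, both of Prlr, and in 13.4% of all windows. GTTGCC, part of the palindromic site of RFX factors, was in 2 of the 8, 1 of Aqp1 and 1 of Kcne2, and in 12.5% of all windows. By gene, the forkhead letters were in 1 and the RFX letters in 2 of the 5 genes, and Kl and Slc4a5 held none of the letters. With so few windows, these counts cannot be set apart from the shares of all windows. The 3 windows below are shown as examples that hold such letters. Each is the 250 bases before the transcript start on the plus strand of GRCm38.p6, with the RFX letters (GTTGCC, or GGCAAC on the other strand) or the forkhead core (TGTTTA) in capitals.
Aqp1, chr6:55336049-55336298: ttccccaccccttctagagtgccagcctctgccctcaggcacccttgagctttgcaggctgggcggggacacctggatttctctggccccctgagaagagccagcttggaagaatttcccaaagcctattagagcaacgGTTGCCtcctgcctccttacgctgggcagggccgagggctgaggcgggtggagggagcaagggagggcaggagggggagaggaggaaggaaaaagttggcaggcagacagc
Kcne2, chr16:92292139-92292388: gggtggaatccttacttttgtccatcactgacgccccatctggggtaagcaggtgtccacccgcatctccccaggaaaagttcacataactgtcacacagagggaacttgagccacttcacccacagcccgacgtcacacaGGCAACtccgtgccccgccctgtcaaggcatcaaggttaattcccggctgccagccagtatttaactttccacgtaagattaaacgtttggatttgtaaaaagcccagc
Prlr, chr15:10176988-10177237: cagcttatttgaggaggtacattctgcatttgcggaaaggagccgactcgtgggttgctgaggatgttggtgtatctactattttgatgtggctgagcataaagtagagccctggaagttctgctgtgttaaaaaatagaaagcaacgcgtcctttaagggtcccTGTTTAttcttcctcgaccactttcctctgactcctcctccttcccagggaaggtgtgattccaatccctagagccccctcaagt
The first of the RFX letters stands 111 bases before the start in Aqp1 and 109 bases before it in Kcne2. A match of 6 letters is a description of the sequence and not a binding site.

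Expression of all 9 genes was highest in tumour 5. That was so for 24.1% of the 13691 genes whose mean was 5 or more, a filter used below against weak genes, and for 25.3% of all genes. Tumour 5 exceeded the median of the other 4 tumours by between 0.69 (Clic6) and 1.58 (Ttr), with a median of 0.88 over the 9 genes, where the median over the filtered genes was -0.01. For every member the gap from tumour 5 down to the next tumour was wider than the whole range of the other 4, narrowly so for Aqp1 (0.57 against 0.55). The share of all genes with such a gap was not computed, so this only describes the members. In these bulk samples, more cells of a type and more RNA per cell cannot be told apart.

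**Figure D1:**
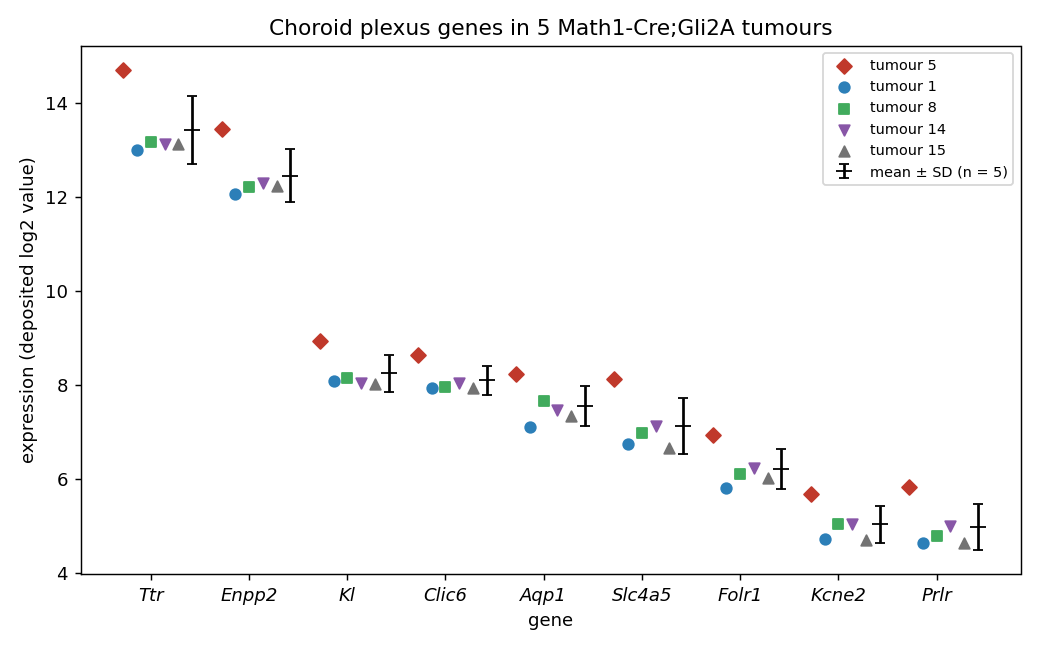
Deposited log2 value (y axis) of each choroid plexus gene (x axis, ordered by mean) in tumours 5, 1, 8, 14 and 15, with the mean and SD over the 5 tumours beside the points. For each gene the red diamond of tumour 5 lies above the other 4 points, which for Ttr sit within 0.16 of each other.

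Per length of exon, the carrier and secreted enzyme genes were the most abundant of the 9. Ttr (GRCm38 chromosome 18, 20665280 to 20674321, plus strand) was 14.71 in tumour 5, against 13.01 in tumour 1, 13.17 in tumour 8, 13.14 in tumour 14 and 13.13 in tumour 15. Tumour 5 was thus 2.98-fold above the median of the rest, and the other 4 tumours were nearly level. Its mean was 13.43 ± 0.72 (SD, n = 5), and 13.11 ± 0.07 without tumour 5 (SD, n = 4). A larger excess in tumour 5 than that of Ttr was found for 6 of the 13691 genes that passed the mean filter. Enpp2 (chromosome 15, 54838901 to 54952892, minus strand) encodes autotaxin, the secreted enzyme that makes lysophosphatidic acid. It was 13.45 in tumour 5, against 12.07, 12.21, 12.31 and 12.23 in tumours 1, 8, 14 and 15. The excess was 1.23 and the range of the other 4 tumours 0.24, and the level without tumour 5 was 12.21 ± 0.10 (SD, n = 4). Its exons overlap those of the noncoding gene Gm26684 on the opposite strand, which averaged 1.83, and how reads were assigned by strand is not known.

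The receptor genes lay below both of these per length of exon. Kl (chromosome 5, 150952607 to 150993817, plus strand) encodes klotho, a co-receptor for FGF23 that is also shed into cerebrospinal fluid. It was 8.94 in tumour 5, against 8.08, 8.16, 8.05 and 8.02 in tumours 1, 8, 14 and 15, and the other 4 tumours lay within 0.14 of each other. Folr1 (chromosome 7, 101858331 to 101870788, minus strand) encodes folate receptor alpha, which carries folate into cerebrospinal fluid. It was 6.93 in tumour 5, against 5.81, 6.10, 6.23 and 6.03 in the other 4. Prlr (chromosome 15, 10177238 to 10349180, plus strand), the prolactin receptor gene, was 5.83 in tumour 5, against 4.65, 4.79, 5.00 and 4.65. Without tumour 5 the means were 8.08 ± 0.06 for Kl, 6.05 ± 0.17 for Folr1 and 4.77 ± 0.16 for Prlr (SD, n = 4). Folr1 and Prlr were both lower in tumours 1 and 15 than in tumours 8 and 14, which Kl was not. Prlr had a mean of 4.98 and was the member below the filter of 5. It shares exon sequence on the same strand with the annotated gene Gm21973, which has no row in the table, so how reads between them were assigned is not known.

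Genes of water and ion movement showed the smallest and some of the larger excesses. Aqp1 (chromosome 6, 55336432 to 55348555, plus strand), the water channel of the ventricular face of the epithelium, was 8.23 in tumour 5, against 7.11, 7.66, 7.47 and 7.35 in tumours 1, 8, 14 and 15. It had the widest range of any member among the other 4 tumours, at 0.55. Slc4a5 (chromosome 6, 83219828 to 83304945, plus strand), a sodium bicarbonate cotransporter gene, was 8.14 in tumour 5, against 6.75, 6.99, 7.14 and 6.66, an excess of 1.27. Kcne2 (chromosome 16, 92292389 to 92298129, plus strand), an accessory subunit of potassium channels, was 5.68 in tumour 5, against 4.73, 5.05, 5.04 and 4.70. Aqp1, Slc4a5 and Kcne2 were each lower in tumours 1 and 15 than in 8 and 14. Clic6 (chromosome 16, 92485736 to 92541243, plus strand), a member of the chloride intracellular channel family, was 8.64 in tumour 5, against 7.94, 7.95, 8.04 and 7.93. Its excess of 0.69 was the smallest of the 9 genes. Without tumour 5 the means were 7.396 ± 0.23 for Aqp1, 6.88 ± 0.22 for Slc4a5, 4.88 ± 0.19 for Kcne2 and 7.97 ± 0.05 for Clic6 (SD, n = 4).

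The range over the 5 tumours exceeded 2-fold in 6 of the 9 genes, namely Ttr, Slc4a5, Enpp2, Prlr, Aqp1 and Folr1, and reached 1.97-fold in Kcne2, 1.90-fold in Kl and 1.63-fold in Clic6. Of the 8 genes that passed the filter of a mean of at least 5, 5 exceeded 2-fold. The share over 2-fold was 3.79% of the 13691 filtered genes and 3.07% of all genes. Without tumour 5 the range exceeded 2-fold in 0 of the 9 genes, against 1.81% of the 13691 genes. The excess in tumour 5 itself was over 1 log2 unit for Ttr, Slc4a5, Enpp2 and Prlr, a size reached by 0.409% of genes that passed the mean filter. The 9 genes were not chosen independently of the earlier finding that choroid plexus markers were high in tumour 5, so these counts describe the genes and test nothing.

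Among the other 4 tumours the order was shared only in part. From highest to lowest, Kl ran through tumours 8, 1, 14 and 15, and Enpp2 through tumours 14, 15, 8 and 1. Of the 9 genes, 5 were highest there in tumour 14 and 4 in tumour 8, places taken by 21.5% and 26.0% of genes that passed the mean filter. In tumour 1, 4 were lowest, and in tumour 15, 5, against 22.1% and 29.0% of those genes. These differences were small: the SD without tumour 5 ran from 0.05 (Clic6) and 0.06 (Kl) to 0.22 (Slc4a5) and 0.23 (Aqp1). The median SD of the 9 genes was 0.42 over the 5 tumours and 0.16 without tumour 5, where that of the filtered genes was 0.11 and 0.10. The genes did not keep a fixed ratio to Ttr. Ttr exceeded Clic6 by 6.07 in tumour 5 and by 5.07 to 5.22 in the others, and it exceeded Kcne2 by 9.02 in tumour 5 and by 8.09 to 8.42 in the others. The difference of Ttr minus Enpp2 moved least, at 1.25 in tumour 5 and 0.83 to 0.96 in the others. Pulling of weakly expressed genes towards their mean acts on such differences too, and its part in them was not tested.

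**Figure D2:**
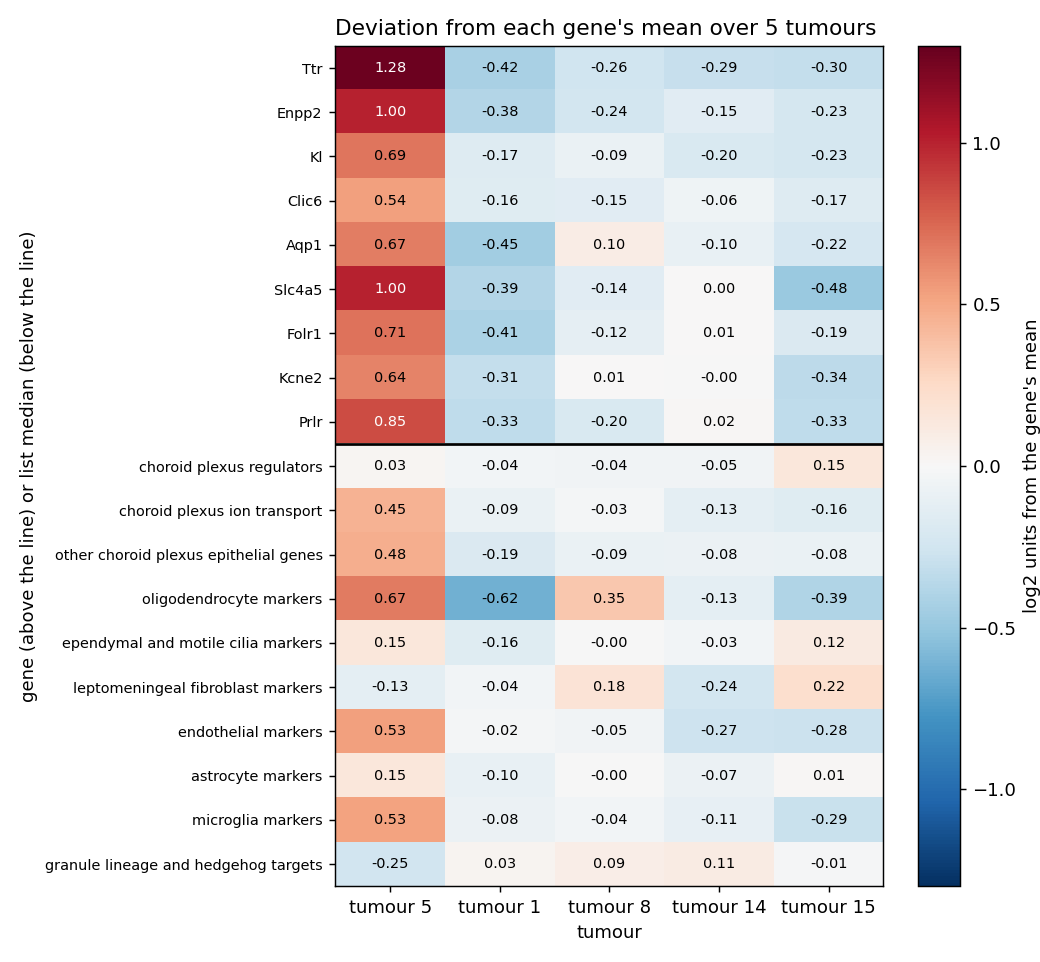
Deviation of each gene from its own mean over the 5 tumours, in log2 units (colour and printed value), for the 9 choroid plexus genes above the line and for the median over genes of 10 lists below it, with tumours in columns. The members reach 0.54 to 1.28 in tumour 5, where oligodendrocyte markers reach 0.67 and granule lineage and hedgehog genes -0.25.

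To set the levels of different genes side by side, log2 of the exon length in kb was subtracted. On this per-length scale Ttr stood first at 13.18 ± 0.72 (SD, n = 5), above 99.9% of 17302 genes, and Enpp2 second at 9.92 ± 0.56, above 95.04%. Aqp1 (6.17 ± 0.42), Clic6 (6.13 ± 0.30), Kl (5.03 ± 0.39), Folr1 (5.02 ± 0.42), Slc4a5 (4.597 ± 0.59) and Kcne2 (4.22 ± 0.40) followed. All of these lay below the median of the matched genes, 6.48. Prlr was last at 1.04 ± 0.49, above 7.64% of genes. The per-length difference of Ttr minus Enpp2 was 3.26 ± 0.16 and that of Enpp2 minus Aqp1 3.76 ± 0.24, each above 0 in 5 of 5 tumours. Aqp1 and Clic6 did not differ beyond their spread (0.04 ± 0.20, above 0 in 2 of 5), and neither did Kl and Folr1 (0.01 ± 0.16, above 0 in 2 of 5). Clic6 exceeded Kl by 1.11 ± 0.11 and Kcne2 exceeded Prlr by 3.18 ± 0.15, in 5 of 5 tumours each. Folr1 exceeded Slc4a5 by 0.43 ± 0.21 and Slc4a5 exceeded Kcne2 by 0.38 ± 0.21, also in every tumour. Without tumour 5 the order of the 9 genes was the same. With the longest transcript in place of the exon length, 5 of the 9 genes kept their place in this order.

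**Figure D3:**
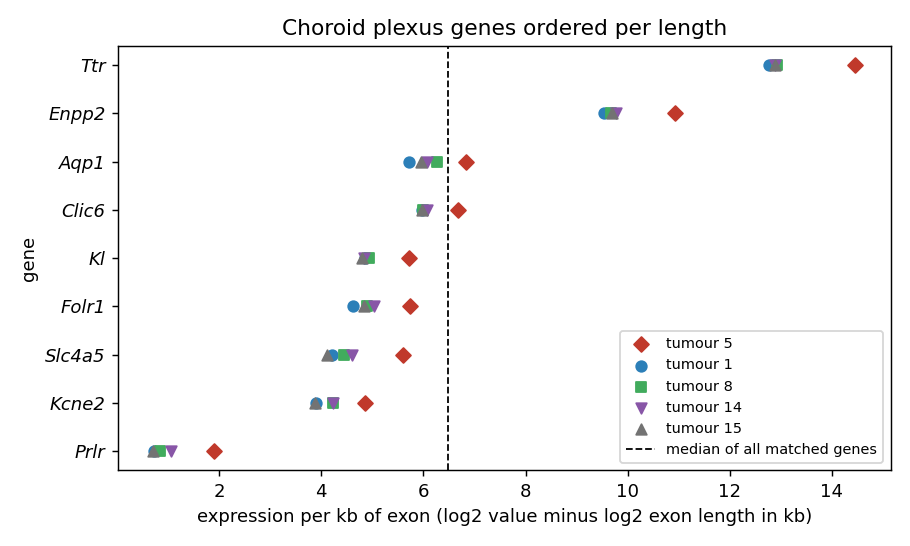
Expression per kb of exon (x axis, log2 value minus log2 exon length in kb) of the 9 genes (y axis, ordered by mean), 1 point per tumour, with a dashed line at the median of 17302 genes. Ttr and Enpp2 lie right of the line in every tumour, and Aqp1 and Clic6 cross it in tumour 5 only.

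Other genes of the choroid plexus epithelium were then set beside the members. Of 10 genes of ion transport in this epithelium, 9 were highest in tumour 5, and 10 lay above the median of the other tumours there, by a median of 0.54. Kcnj13, an inward rectifier potassium channel of the epithelium, was 7.34 in tumour 5, against 5.99 to 6.14 in the other 4. Car14, a membrane carbonic anhydrase gene, was 7.76 in tumour 5, against 6.29, 6.94, 6.65 and 6.34 in tumours 1, 8, 14 and 15. Among 18 of 20 further epithelial genes found in the table, 13 were highest in tumour 5, with a median excess of 0.54. Slc13a4, a sulfate transporter gene, was 8.24 in tumour 5, against 6.75 to 7.02 in the others. Htr2c, a serotonin receptor gene known for its abundance in this epithelium and named here after its values were seen, was 7.70 in tumour 5, against 6.26 to 6.80. Prr32 had the lowest mean of the list, 4.16, and was 4.54 in tumour 5, against 4.03 to 4.12. The genes of this list that lay lower in tumour 5 included Igf2, a growth factor gene also expressed by meningeal cells, at 13.04 in tumour 5, against 12.93 to 13.80. Cldn1, a tight junction gene named after its values were seen, was 9.21 in tumour 5, against 8.97 to 9.96.

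Regulators of the choroid plexus and of motile cilia were not raised as a list in tumour 5. Of 8 such genes, 1 was highest there (Msx1, at 5.45 against 4.90 to 5.01), and the median excess was -0.05. Otx2, a homeodomain factor required for choroid plexus development, was 10.80 in tumour 5, against 10.44, 10.82, 10.69 and 10.25 in tumours 1, 8, 14 and 15. Its order differed from that of the members, with tumours 5 and 8 nearly equal. Gmnc, which starts the multiciliated cell programme, was 6.24 in tumour 5, against 6.79, 6.21, 6.68 and 7.78. Mcidas, which acts in the same programme, had the lowest mean of the list at 4.53 ± 0.11. Rfx3, a factor of ciliary genes of the family whose letters were sought above, was 10.26 ± 0.11 (SD, n = 5), and Foxj1, a forkhead factor of motile cilia, 7.99 ± 0.21.

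Lists of genes that work with the members had smaller median excesses in tumour 5 than the members. In thyroid hormone and retinol transport 5 of 8 genes were highest in tumour 5, with a median excess of 0.29. The most abundant, the thyroid hormone receptor gene Thra, was 12.73 in tumour 5, against 12.40 to 12.53. Dio3, which inactivates thyroid hormone, was lowest in tumour 5, at 4.51 against 4.77 to 5.74. In folate uptake and use 5 of 6 genes were highest in tumour 5, but by a median of only 0.10. Folr2, another folate receptor gene, was 5.25 in tumour 5, against 4.87 to 5.04. For lysophosphatidic acid signalling, downstream of Enpp2, 0 of 9 genes were highest in tumour 5, with a median excess of 0.05. Plpp3, which degrades the lipid, was 11.29 in tumour 5, against 11.002 to 11.396.

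The lists for klotho and the prolactin receptor had median excesses near 0 in tumour 5. Among 8 klotho partners 1 was highest in tumour 5 and the median excess was 0.01. Adam10, a protease that sheds klotho, averaged 11.88 ± 0.10, whereas Klb, the related co-receptor gene beta-klotho, averaged 0.51 ± 0.04. In prolactin receptor signalling 1 of 8 genes was highest in tumour 5, with a median excess of -0.03. Socs3, a feedback inhibitor of cytokine signalling, averaged 10.37 ± 0.14, and Ghr, the growth hormone receptor gene, was 7.89 in tumour 5, against 7.85 to 8.74.

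Lists of relatives of the channel and transporter genes had smaller median excesses than the members as well. The table held 7 other aquaporin genes, of which 1 was highest in tumour 5, and the median excess was -0.02. Aqp4, the water channel of astrocyte end feet, was the most abundant at 11.82 ± 0.24, and Aqp2, the collecting duct channel of the kidney, averaged 0.99 ± 0.03. Among 10 potassium channel partners and relatives of Kcne2, 3 were highest and 4 lowest in tumour 5, with a median excess of -0.13. Of 4 other chloride intracellular channel genes 3 were highest in tumour 5, with a median excess of 0.23. Clic4, the most abundant, was 12.72 in tumour 5, against 12.62 to 12.91. Clic3, with the lowest mean, was 5.96 in tumour 5, against 5.45 to 5.73. Of 6 other bicarbonate transporter genes 4 were highest there, with a median excess of 0.21. Slc4a4 was 11.67 in tumour 5, against 11.15 to 11.50 in the others. Slc4a1, with the lowest mean, was 5.52 in tumour 5, against 4.71 to 4.88. Its excess of 0.69 was as large as that of Clic6.

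The genes between Kcne2 and Clic6 on chromosome 16 did not follow their neighbours. Smim11 was 7.76 in tumour 5, against 7.42 to 7.91 in the other tumours. Kcne1, which belongs to the same subunit family as Kcne2, was 6.41 in tumour 5, against 6.63 to 6.84, and Rcan1 was 9.52 in tumour 5, against 9.53 to 9.86. Kcne1 and Rcan1 were thus lowest in tumour 5, where Kcne2 and Clic6 were highest. For Rcan1 this was narrow, as tumour 14 was at 9.53. Of the filtered genes, 24.6% were lowest in tumour 5. The remaining gene of the interval, 1700048M11Rik, had a mean of 2.91. Clic6 also overlaps 2410124H12Rik on the same strand, though not within exons, and 2410124H12Rik averaged 1.23.

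Markers of oligodendrocytes, endothelium and microglia were raised as lists in tumour 5 as well, and astrocyte markers less so. All 10 oligodendrocyte markers were highest there, with a median excess of 0.80, and the log2 of their summed linear values was 15.91 in tumour 5, against 14.53 to 15.55 in the others. Of 10 endothelial markers 8 were highest in tumour 5 (summed level 13.61, against 12.76 to 13.03), and of 10 microglia markers 9 (13.98, against 13.16 to 13.42). The median excess was 0.67 for the endothelial and 0.64 for the microglia markers. Of 9 astrocyte markers 5 were highest there (15.54, against 15.15 to 15.32). Their median excess was only 0.19, between the 5th and 95th percentiles of the filtered genes (-0.37 and 0.43). None of these lists had a marker at 0, and the lowest single value was 4.50, for Opalin in tumour 15. The summed level of the 9 choroid plexus genes was 15.28 in tumour 5, against 13.71 to 13.88 in the others, and it is mostly Ttr and Enpp2. The part of these other cells in the members' values was not tested.

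Ependymal, meningeal and tumour lineage genes did not show this excess as lists. Of 10 ependymal and motile cilia markers 4 were highest in tumour 5, with a median excess of 0.07, a summed level of 8.64 in tumour 5, against 8.32 to 8.60, and Tmem212 the lowest at 2.80 ± 0.09. Of 11 leptomeningeal fibroblast markers 3 were highest and 4 lowest in tumour 5, and their summed level was 14.11 there, against 14.17 to 14.87. Ptgds, a prostaglandin D synthase gene of meninges and oligodendrocytes, was 11.21 in tumour 5, against 8.89 to 10.42. Col3a1, a fibrillar collagen gene, was 12.57 in tumour 5, against 13.03 to 14.02. Of 12 granule lineage and hedgehog genes 0 were highest and 7 lowest in tumour 5, a place that 24.6% of the filtered genes took.

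**Figure D4:**
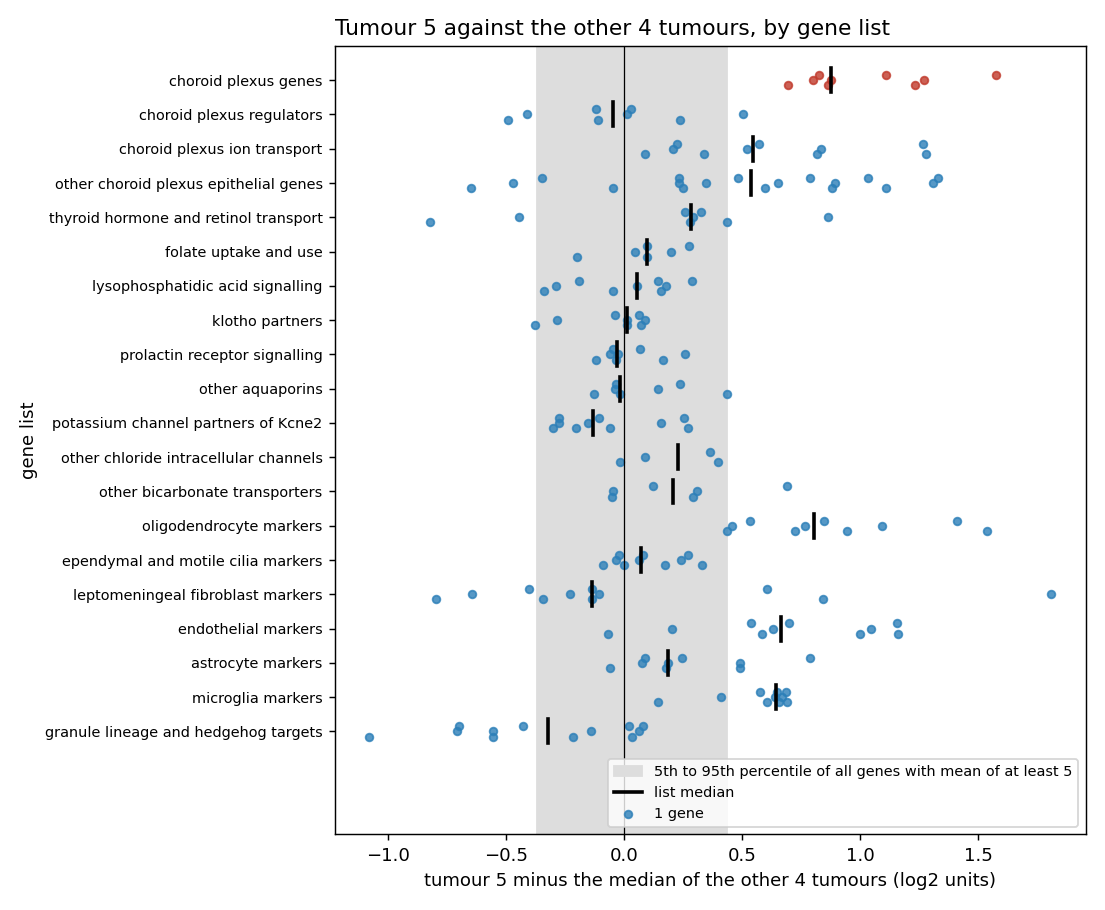
Tumour 5 minus the median of the other 4 tumours (x axis, log2 units), 1 point per gene and a bar at each list's median, for the choroid plexus genes (top row, red) and 19 other lists. The grey band spans the 5th to 95th percentile of the 13691 filtered genes, from -0.37 to 0.43, and all 9 choroid plexus genes lie to the right of it.

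Profiles over the 5 tumours were compared by the root mean square difference between values centred on each gene's mean, since 5 samples are too few for a correlation. For 7 of the 9 genes, all but Kl and Clic6, the nearest of 10 list profiles was that of the other choroid plexus genes. Enpp2 was 0.15 from it and 0.33 from the oligodendrocyte profile, which ranked 6 of 10. The oligodendrocyte list had medians of 9.92 to 10.87 over tumours 1, 8, 14 and 15, where Enpp2 lay between 12.07 and 12.31. Aqp1 was 0.11 from the other choroid plexus genes and 0.15 from the oligodendrocyte markers. Kl lay nearest to the microglia profile (0.10) and was 0.12 from the other choroid plexus genes, and Clic6 lay nearest to the list of further epithelial genes (0.06). These distances share the excess of tumour 5, which each list named in this paragraph has. The leptomeningeal fibroblast profile and the granule lineage and hedgehog profile, also among the 10, lay at -0.13 and -0.25 in tumour 5.

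Among genes outside the 9, Ttr's profile was nearest to those of Kcnj13 (0.13), Slc6a20a, a proline transporter gene (0.13), Slc13a4 (0.14), Sult1a1, a sulfotransferase gene (0.19), and Rnf112 (0.21), over the 5 tumours. Slc6a20a was 8.23 in tumour 5, against 6.46, 6.85, 6.75 and 6.42 in tumours 1, 8, 14 and 15. With the members included, Enpp2 ranked 4 and Slc4a5 ranked 6 in nearness to Ttr. The others were farther off, with Folr1 at rank 39, Kl at 40, Aqp1 at 79, Kcne2 at 90 and Clic6 at 144. Prlr, below the filter of 5, was not ranked. The profiles were not scaled, so these ranks also reflect the size of the excess in tumour 5. It was 0.69 for Clic6 and 0.88 for Kl, against 1.58 for Ttr. The median profile of the 9 members, which is 0.71 in tumour 5 and -0.38 in tumour 1, was nearest to Cyp46a1, Rasa4, Atp13a4, Vsnl1 and Gabra2, at distances of 0.02 to 0.06. Cyp46a1, the cholesterol 24-hydroxylase of neurons, was 7.74 in tumour 5, against 6.63, 6.90, 6.98 and 6.76. Vsnl1 and Gabra2 are likewise known as genes of neurons. Without tumour 5, 0 of these 10 neighbours remained.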

How the data were processed

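The authors deposited log2 values for 17739 genes by symbol, and the table's name in the labels was taken to mean regularised-log values. The authors used STAR 2.4.1, featureCounts from Subread 1.4.6 and DESeq2, per the submitters' processing notes, with builds mm10 and GRCm38. The annotation, strand setting and gene filter were not given in the sources used here. Of 7 columns, 2 match no sample in the labels and were not used, although they may have entered the transformation. Depth per library is unknown, so no counting interval is given.

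For each gene the mean, SD and range over the 5 tumours, and tumour 5 minus the median of the other 4, were computed with Python 3.11.15, numpy 2.4.6 and pandas 2.3.3, and the steps were tested on simulated data. Backgrounds use the 13691 genes whose mean was 5 or more. Exon lengths and positions came from GENCODE on GRCm38, in which 97.5% of the symbols matched 1 gene. Promoters came from RefSeq. The members, the 19 other lists and the choice of tumour 5 were chosen with earlier results of these data known. Named genes are the members and, from each other list, those of highest mean, lowest mean and largest SD, plus the 5 nearest profiles to Ttr and to the members. Further genes were named after their values were seen: Msx1, Htr2c, Cldn1, Foxj1, Rfx3 and the genes between Kcne2 and Clic6. Not every gene of the rule is described. Alternatives were other filters, column centring, other summaries and leaving out each tumour.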

Additional observations from a re-analysis of the deposited data

Results flagged for a closer look

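A value was taken as far from the others where its gap to the next tumour, divided by the range, exceeded 0.71 in the 5 tumours. Chance alone gives this in about 1 in 20 genes, and 5.57% of genes with a mean of at least 5 met it. Of the 9 choroid plexus genes 4 met it, each through tumour 5: Ttr at 14.71 (ratio 0.903), Enpp2 at 13.45 (0.828), Kl at 8.942 (0.845) and Clic6 at 8.641 (0.843). The ratio for Prlr was 0.703. Among 20 list medians 3 met it, also through tumour 5: choroid plexus ion transport at 9.015, other choroid plexus epithelial genes at 7.761 and astrocyte markers at 11.44. The astrocyte median fell on different genes: Aldoc in tumour 5, S100b in tumour 1 and Gja1 in tumour 15. Gene by gene, the median excess of the astrocyte markers in tumour 5 was 0.19, so their flag is not read as a shift of the list. Other named genes that met it were, in tumour 5, the channel gene Kcnj13 (7.345), the transporter genes Slc13a4 (8.242) and Slc6a20a (8.229), the anion exchanger gene Slc4a1 (5.517), Prr32 (4.538), Rasa4 (8.771), Atp13a4 (7.957) and Abcb1a (9.748), an efflux pump of brain endothelium. Ghr stood apart in tumour 15, at 8.736. Most of these genes were named for a large SD or for a profile near that of Ttr or of the members, which favours such a gap, so their number is not read against the share of all genes.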

How the results depend on the processing

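No paired analysis was possible because the labels give 1 group only. Of 106 values recomputed under the alternatives, 94 stayed within the spread between tumours or, for counts, within 1.5 times, 12 moved and 0 changed sign. Many of the 106 were mean levels of single members, judged against that gene's own SD. Leaving out 1 of 5 tumours cannot shift a mean by a whole SD, so those values could not move. Levels and counts also cannot change sign, so the 94 and the 0 are not read as stability. Leaving out each tumour in turn gave 0 to 6 members with a range over 2-fold (5 of 8 with all tumours), and the 0 came without tumour 5. It gave a range of the members' median between tumours of 0.554 to 1.122, lowest without tumour 5, 5 to 9 members in the same place in the per-length order, lowest without tumour 8, and 0 to 7 of the 10 nearest genes. In every tumour the members' median was the value of Aqp1, so its range is that of Aqp1 alone. Aqp1 was also the member with the widest range without tumour 5. When a tumour other than tumour 5 was left out, every member that passed the filter of 5 was highest in tumour 5. Their number was 8 or 9, as Prlr passed the filter in some of these settings only. The median excess was then 0.862 to 0.957. Neither value can be had without tumour 5. With a mean of at least 8 required, which 4 members met, 4 were highest in tumour 5 and 2 exceeded 2-fold. An SD over 0.3 in place of the range counted 8 members. With the longest transcript 5 members kept their place, and with centring on the gene median 6 of the 10 nearest genes did. The lower counts under a stricter filter follow from fewer genes; for the others the cause was not tested.

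Unknown depth and the pull of weakly expressed genes towards their mean bear on Kcne2 and Prlr, the members of lowest mean.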
